A study of Drosophila melanogaster with 24 samples.

Results

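The genes described here are 9 maternal genes of Drosophila melanogaster that lay down the body axes and the germ plasm of the egg: bicoid (bcd), oskar (osk), nanos (nos), gurken (grk), vasa (vas), orb, exuperantia (exu), swallow (swa) and tudor (tud). Every probe set of the array that was annotated to 1 of these genes and to no other gene was taken, by current or older symbol, which gave 13 of 18769 probe sets for 9 of 11981 genes. One more probe set names vas together with a second gene (wwk) and was left out. The nanos probe set was matched by its gene identifier, since the symbol of nitric oxide synthase differs from it only in a capital letter.

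Transcript abundance was measured on 24 whole-body arrays from 6 lines of 1 selection experiment for male aggressive behavior: 2 lines selected for high aggression (H1 and H2), 2 selected for low aggression (L1 and L2) and 2 unselected control lines (C1 and C2). Each line gave 2 female arrays and 2 male arrays, each from a pool of virgin flies 3 to 7 days old that had been kept without food for a short period. The labels name no transgene or mutation, and all lines came from 1 base population. Selection acted on males alone, and the line, not the array, is the unit that was selected. One high-aggression male title gives its line in an irregular form and was read as H2, the only place in the layout that the other 23 titles leave empty.

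In females, these genes are transcribed mostly in the nurse cells of the ovary. Messages such as those of bcd, osk and grk are carried into the oocyte along microtubules. bcd message anchored at the front of the egg is translated into a gradient that specifies head and thorax, osk message at the rear assembles the germ plasm and holds nos for the abdomen, and grk message beside the oocyte nucleus signals to the follicle cells to set the rear and the back of the egg. Virgin females hold stored mature eggs, so whole-body RNA of a female includes the ovary, while that of a male includes the testis.

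The values are Signals of Microarray Suite 5.0, scaled by the authors on each array, so they are relative brightnesses and not numbers of molecules. Means after trimming 2% of the values at each end differed by less than 2 units between arrays, and medians were 71.4 to 118.9 on female arrays and 125 to 143 on male arrays. Replicate arrays of a line and sex correlated at 0.972 to 0.987 in females and 0.982 to 0.990 in males over the tested probe sets. The 16 eggshell and yolk genes measured summed to between 122891 and 206581 Signal units on female arrays and to between 306 and 568 on male arrays. One female array stood apart: C1 female replicate 1 had a median over 18 male accessory gland genes of 3.54% of their mean in males, against at most 0.213% on the other 11 female arrays, and a median over 24 testis genes of 3.26%, against at most 0.932%. On that array 16 of the 18 accessory gland genes were above 1% of their male mean, and their summed Signal was 8329, where male arrays had 176570 to 207808. The testis genes summed to between 828 and 4002 on female arrays and to between 86678 and 120943 on male arrays, and no marker gene of the 3 lists was at 0 on any array. L1 female replicate 1 had the lowest eggshell sum, 122891. In whole-body RNA, fewer cells of a type and less RNA per cell cannot be told apart.

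**Figure D1:**
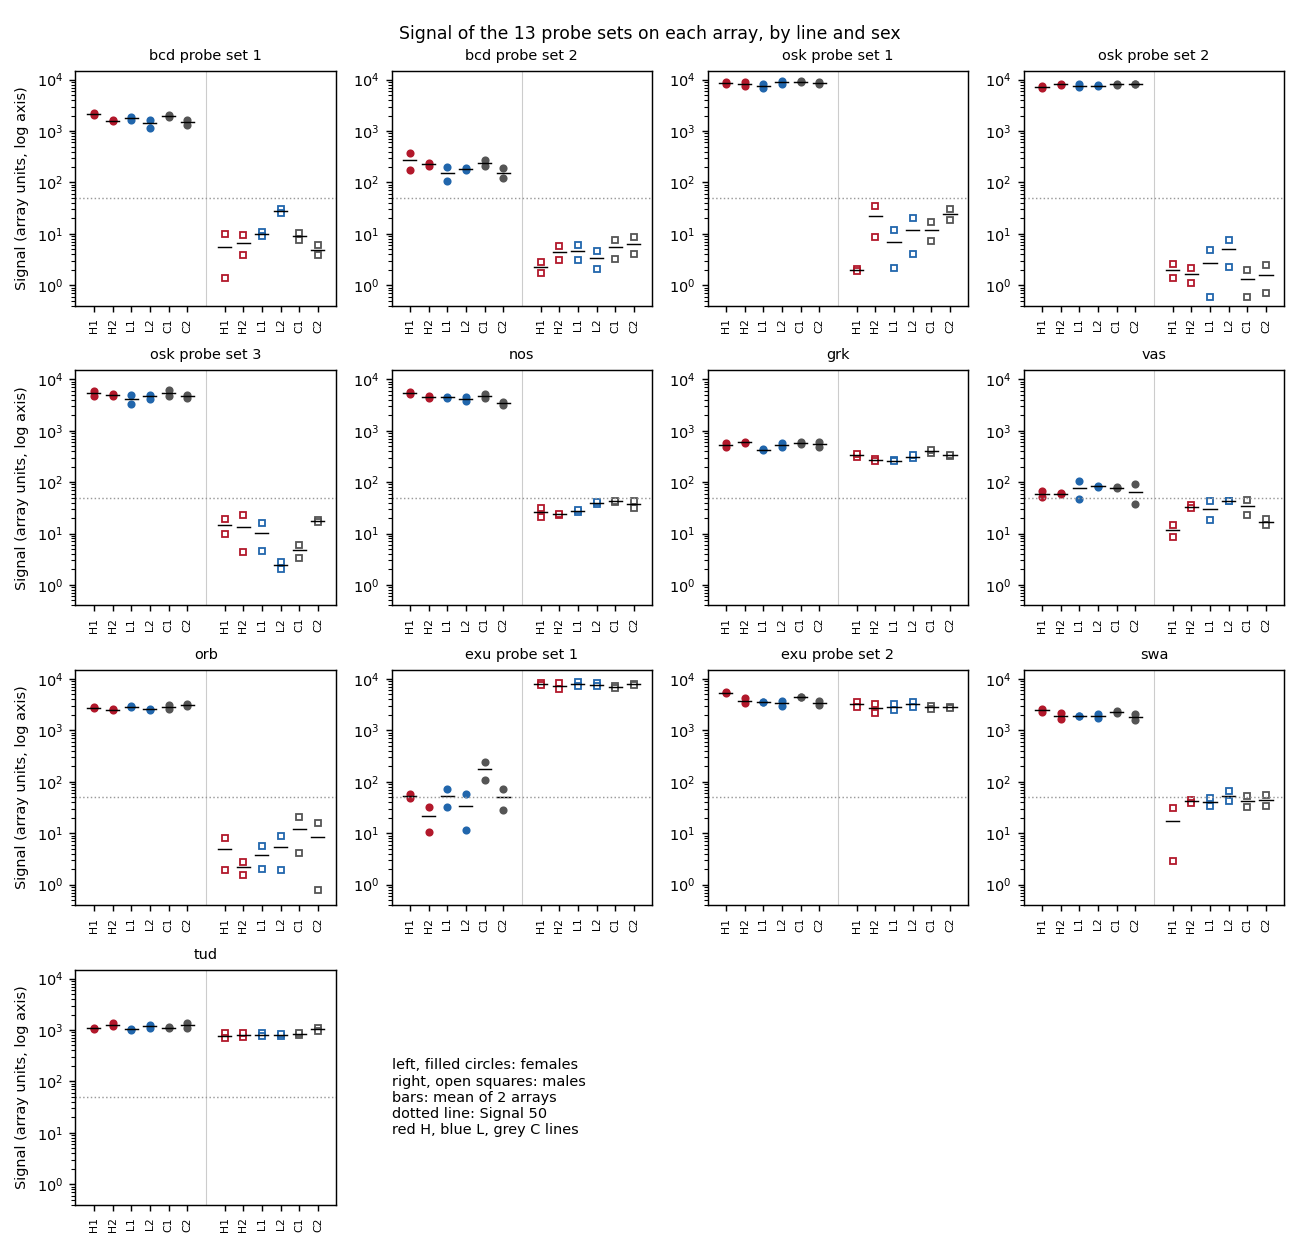
Signal of each of the 13 probe sets on all 24 arrays (logarithmic axis, array units), with females of lines H1, H2, L1, L2, C1 and C2 on the left of each panel, males on the right, bars at the mean of 2 arrays and a dotted line at a Signal of 50. Females lie above males without overlap for 9 probe sets, males lie far above females for exu probe set 1, and the sexes overlap for vas, exu probe set 2 and tud. The share of all tested probe sets without overlap is not given here, so these counts are a description.

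Of the 13 probe sets, 12 passed the filter on low values (a Signal of at least 50 on the 12 brightest of the 24 arrays), and the vas probe set did not. Of the 12, 8 reached that level through the 12 female arrays alone, 1 (exu probe set 1) through the 12 male arrays alone, and 3 (grk, exu probe set 2 and tud) were at or above 50 on all 24 arrays. A probe set that passes through 1 sex has to differ between the sexes, so for the first 9 the difference is given as a description. All 12 tested probe sets differed between the sexes in limma's moderated test at an adjusted p under 0.001, 11 higher in females and 1 higher in males, where 44.5% of the 11928 tested probe sets were higher in females and 30% higher in males. Their median female minus male difference was 5.66 on the log2(Signal + 16) scale, beside 0.17 over all tested probe sets. On this scale, adding 16 shrinks the difference of a gene that is dim in 1 sex.

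Among the genes of the anterior system, bcd was bright in every female and dim in every male. Its first probe set (1631463_a_at) had a lowest, median and highest Signal of 1158, 1670 and 2277 on the 12 female arrays, against 1.4, 9.3 and 30.6 on the 12 male arrays. No male array came near a female one, and the difference was 6.07 ± 0.08 (log2, SE). The second bcd probe set (1626502_s_at) was read at 105 to 367 in females and 1.7 to 8.5 in males, a difference of 3.38 ± 0.12. Both probe sets thus separated the sexes without overlap in every line.

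swa, whose protein is needed to keep bcd message at the front of the egg, was also bright in every female and dim in every male. Its Signals were 1561, 2074 and 2640 (lowest, median, highest) in females and 2.9, 40.4 and 64.9 in males, and the difference was 5.26 ± 0.14. Only 3 of the 12 male arrays reached 50, and line H1 had the lowest male mean, 16.9, with the other 5 lines at 41.2 to 53.6.

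The 2 probe sets of exu, which acts with swa in bcd localization, went in opposite directions. exu is known to be transcribed in the germ line of both sexes, with transcripts of different length in the ovary and the testis, and it is also required for sperm formation. Probe set 1 (1633180_at) had Signals of 10.4, 52.6 and 245 in females, against 6314, 7607 and 8897 in males. Only 6 of the 12 female arrays reached 50, and the difference was -6.87 ± 0.19. Probe set 2 (1639059_s_at) was bright in both sexes, at 2958, 3738 and 5523 in females and 2203, 2909 and 3600 in males, and was higher in females by 0.44 ± 0.08 (limma, adjusted p = 0.00012), with overlapping ranges. The same gene was thus far higher in males by 1 probe set and somewhat higher in females by the other. Which transcripts the probes of each set match was not analysed here.

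The brightest female array for exu probe set 1 was the one with the high accessory gland and testis values. C1 female replicate 1 had 245, which is 3.19% of the male mean, where the other 11 female arrays had 10.4 to 108, or 0.135% to 1.40% of it. The accessory gland median on that array was 3.54% of the male level and the testis median 3.26%, as given above. Their part in its exu Signal was not tested. Without that array the difference between the sexes was -6.96.

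Among the genes of the posterior system and the germ plasm, osk showed the widest separation of the sexes. Its 3 probe sets had female medians of 8588 (range 6839 to 9392), 7908 (6786 to 8418) and 4850 (3370 to 6113), against male medians of 10.3 (1.9 to 35.6), 2.1 (0.6 to 7.7) and 8.05 (2.0 to 23.0). The differences were 8.27 ± 0.13, 8.74 ± 0.06 and 7.57 ± 0.11. The second of these had the lowest p of all 11928 tested probe sets in this comparison, a description because it passed the filter through females alone. osk was read alike by all 3 probe sets, unlike exu.

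nos, the translational repressor that patterns the abdomen, was read at 3232, 4458 and 5585 in females and at 20.9, 31.2 and 43.6 in males, a difference of 6.52 ± 0.06. Every male array was thus far below every female array. tud, the founding Tudor-domain protein of the germ plasm, was instead bright in both sexes, at 1004, 1105 and 1385 in females and 685, 848 and 1106 in males. It was higher in females by 0.45 ± 0.06 (limma, adjusted p = 3.25e-06), and the highest male array, in line C2, was level with the median female array.

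vas, the DEAD-box RNA helicase of germ cells of both sexes, was measured by 1 dim probe set of its own, 1636054_at. It had Signals of 37.5, 71.3 and 107 in females and 8.6, 27.4 and 45.3 in males, with overlapping ranges. It entered no test here. When the filter was dropped, its difference was 0.99 (limma, adjusted p = 1.25e-05), a value that rests on Signals under 50 in all 12 males.

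grk, the ligand that the oocyte sends to the epidermal growth factor receptor of the follicle cells, kept most of its level in males. It had 426, 562 and 616 in females and 259, 317 and 424 in males, a difference of 0.72 ± 0.06 (limma, adjusted p = 3.41e-09). The ranges just failed to overlap, with the lowest female array in line L1 and the highest male array in line C1. orb, the cytoplasmic polyadenylation factor that activates osk and grk message in the oocyte, was by contrast close to the bottom of the scale in males, at 2468, 2775 and 3240 in females and 0.8, 3.5 and 20.2 in males, a difference of 7.03 ± 0.11.

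The level left in males, the male mean Signal as a percentage of the female mean Signal of the same line, split the probe sets into 3 kinds. In 8 of the 13, covering bcd, osk, nos, orb and swa, it was under 5%, a limit chosen after the values were seen. In order, the means over the 6 lines were 0.0306% ± 0.0182 for osk probe set 2, 0.157% ± 0.102 for osk probe set 1, 0.215% ± 0.119 for orb and 0.217% ± 0.123 for osk probe set 3 (SD, n = 6 lines). They were 0.667% ± 0.649 for bcd probe set 1, 0.760% ± 0.253 for nos, 2.03% ± 0.73 for swa and 2.34% ± 1.09 for bcd probe set 2. Neighbours in this order differed by less than the larger of their SDs over lines, apart from the steps above osk probe set 2 and above nos. The percentage was highest in L2 for bcd probe set 1, at 1.98%, and lowest in H1 for swa, at 0.685%. Detection calls were not used here, so whether male Signals this low differ from array background was not tested.

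In the second kind a larger share was left, 39.6% ± 14.2 for vas, 59.7% ± 7.8 for grk, 73.4% ± 7.1 for tud and 75.1% ± 13.4 for exu probe set 2 (SD, n = 6 lines). Of these, tud and exu probe set 2 lay within each other's spread. grk kept least in H2, at 45.8%, and most in C1, at 69.1%. No line had a male mean above its female mean for any of the 4, and the closest was exu probe set 2 in L2, at 95%. The third kind was exu probe set 1 alone, where the male level was 4000% of the female level in C1 and 15153% to 34393% in the other 5 lines, percentages that divide by female means partly under 50. For comparison, the 16 eggshell and yolk genes, which are made by follicle cells and fat body and not by the germ line, had between 0.0559% and 4.08% left in males with a median of 0.240%.

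**Figure D2:**
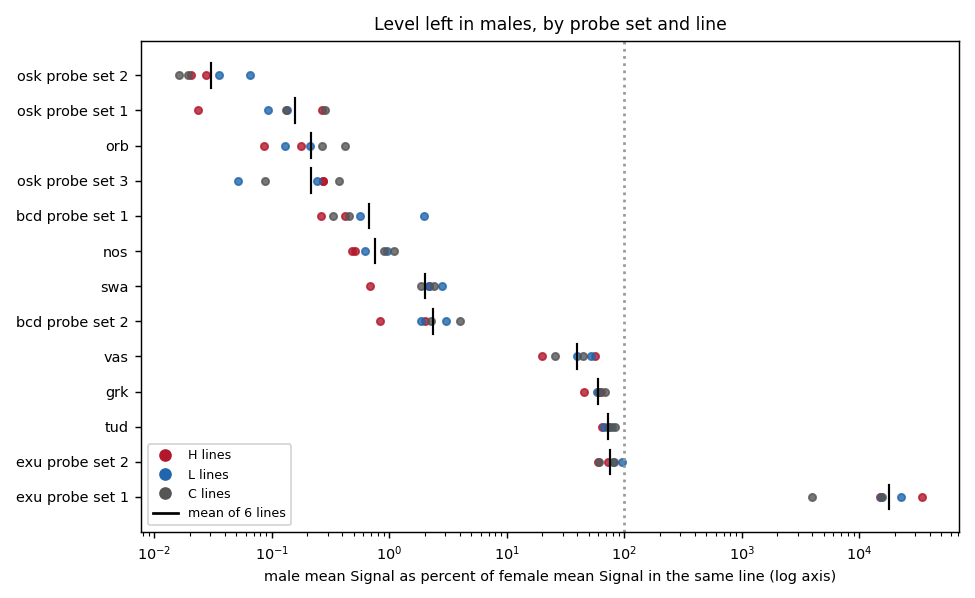
Male mean Signal as a percentage of the female mean Signal in the same line (logarithmic axis), 1 point per line (2 arrays per sex), with H, L and C lines in red, blue and grey and a black line at the mean of the 6 lines; the dotted line marks equal levels. Values run from 0.0306% for osk probe set 2 through 39.6% to 75.1% for vas, grk, tud and exu probe set 2 to far above 100% for exu probe set 1.

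A further comparison asked whether the lines differed. No member probe set differed among the 6 lines with the sexes averaged, where 6.56% of all tested probe sets did (limma, adjusted p under 0.001), in the line by sex term, where 0.0252% did, among the lines within females, where 2.27% did, or within males, where 2.06% did. At an unadjusted p under 0.05, 2, 4, 4 and 5 of the 12 passed in these 4 tests, where 41.4%, 12.4%, 31.3% and 30.7% of all tested probe sets did. The lowest adjusted p values were 0.020 for grk with the sexes averaged, 0.0648 for bcd probe set 1 in the line by sex term, 0.0251 for exu probe set 1 in females and 0.00965 for bcd probe set 1 in males.

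The spread among female arrays differed between the members. osk probe set 2 was the steadiest, with a coefficient of variation of 6.45% over the 12 arrays and a highest Signal 1.24 times the lowest, followed by orb (8.93%), osk probe set 1 (9.01%), tud (10.5%) and grk (13%). nos (15.6%), swa (15.5%), bcd probe set 1 (18.1%) and exu probe set 2 (20.5%) varied more, and the dim vas (28.4%) and bcd probe set 2 (33.5%) and exu probe set 1 (98.0%) most. For bcd probe set 1, nos, grk, orb and both exu probe sets the standard deviation of the 6 line means was larger than that between replicate arrays, for example 0.22 against 0.12 (log2) for nos. For the other 7 probe sets, among them all 3 of osk, it was smaller. A line mean averages 2 arrays and varies less than a single array even where lines are alike, so a smaller value does not show that lines were alike.

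Lines H1 and C1 had the 2 highest female means for bcd (both probe sets), nos, exu probe set 2 and swa, a pattern noticed in the values and not tested. Their female means for exu probe set 2 were 5417 and 4557, with the other 4 lines at 3383 to 3763, and for swa 2468 and 2294, with the others at 1821 to 1913. osk, orb, grk and tud ordered the lines differently, and C1 and H1 were the first pair for none of them except osk probe set 3. The eggshell sums of the 2 lines, at 185494 for H1 and 186549 for C1, lay below that of C2, at 194117. They lay above those of H2 (167988), L2 (167761) and L1 (144308), and their part in this pattern was not tested. The 2 selection groups that H1 and C1 belong to are not the same, so this ordering runs across the selection groups.

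Between the selection groups no member was called in females. A call needed an adjusted p under 0.05 in limma with all 4 differences between lines of the same sign, and 4.78% of all tested probe sets met it for H versus L, 3.42% for H versus C and 3.02% for L versus C in females. At an unadjusted p under 0.05, 4, 2 and 2 of the 12 members passed, where 20.4%, 18.7% and 16.2% of all tested probe sets did. H versus C and L versus C share the C arrays, and H versus L and H versus C the H arrays, so they are not independent.

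The H versus L differences of the members in females were mostly small and above 0. They were above 0 for 9 of the 12 probe sets, with a median of 0.20 beside -0.02 over all tested probe sets, and above that overall median for 10. bcd, osk and exu count with more than 1 probe set and all share the same arrays, so these signs are not independent of each other. The largest difference was that of bcd probe set 2, 0.51 with a 95% interval of 0.05 to 0.96 (adjusted p = 0.199 in limma). exu probe set 2 followed at 0.37 (0.07 to 0.67, adjusted p = 0.148 in limma), from Signals of 5523, 5311, 4190 and 3335 in H females and 3597, 3595, 3809 and 2958 in L females. Both H1 arrays and 1 H2 array lay above every L array, and the other H2 array lay among them. With the replicate number as a block this one probe set was called (adjusted p = 0.0287), and when each array was scaled to 1 median within each sex it was called together with bcd probe set 2, nos and grk. That scaling moved the median H versus L difference of all tested probe sets in females to 0.21, and 10 of the 12 members lay above that median too. The share of all tested probe sets called with the block or with this scaling is not given here, so these calls show no excess of members.

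The same comparison for nos gave Signals of 5585, 5162, 4812 and 4430 in H females, 4305, 4587, 4485 and 3791 in L females, and 5199, 4297, 3553 and 3232 in C females. The H minus C difference was 0.31 (0.10 to 0.53, adjusted p = 0.10 in limma), and the H and C arrays overlapped through C1. For the steady osk probe set 2 the intervals were narrow and held 0: H minus L was -0.01 (-0.21 to 0.20), H minus C -0.10 (-0.31 to 0.11) and L minus C -0.09 (-0.30 to 0.11). For tud they were -0.14 to 0.30, -0.23 to 0.21 and -0.31 to 0.13. Differences beyond these bounds, in either direction, lie outside the 95% intervals of both genes, which take arrays and not lines as replicates. On line means the SE of H minus L was larger, 0.136 against 0.097 for osk probe set 2 and 0.160 against 0.102 for tud. Bounds for selected lines are thus wider than these.

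The L minus C differences in females were below 0 for 11 of the 12 probe sets, with a median of -0.12 beside 0.01 over all tested probe sets. The one above 0 was that of nos, at 0.10. As for H versus L, these signs are not independent of each other, and none of the differences was called. grk had the lowest p outside exu probe set 1, at -0.23 (-0.44 to -0.03, adjusted p = 0.233 in limma), with 434, 426, 583 and 487 in L females and 556, 603, 493 and 616 in C females. The L1 arrays were the 2 lowest of all female arrays, and the L2 arrays lay next to the C arrays. The eggshell and yolk sums were 157542 to 193863 on the 4 H arrays, 122891 to 169289 on the 4 L arrays and 166516 to 206581 on the 4 C arrays, and their part in these differences was not tested.

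exu probe set 1 gave the widest differences in females, from dim Signals. H females had 56.6, 48.5, 10.4 and 32.1, L females 31.9, 73.3, 11.6 and 56.6, and C females 245, 108, 72.2 and 28.8. H minus C was -1.10 (adjusted p = 0.0685 in limma) and L minus C -0.97 (adjusted p = 0.117), and both C1 arrays were above every H and L array. The first of these is the array with the high accessory gland and testis values, and without it they were -0.84 (adjusted p = 0.202) and -0.70 (adjusted p = 0.327).

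In males, 3 contrasts of member probe sets were called, all on Signals under 50 from probe sets that passed the filter through females alone. bcd probe set 1 was lower in H than in L males by 0.63 (95% interval -0.92 to -0.33, adjusted p = 0.0158 in limma, where 3.62% of all probe sets were called). It was higher in L than in C males by 0.56 (0.27 to 0.86, adjusted p = 0.0373, with 2.48% called). The Signals behind it were 9.8, 1.4, 3.8 and 9.5 in H males, 10.8, 9.1, 30.6 and 25.1 in L males, and 10.4, 7.5, 3.8 and 6.0 in C males. Line L2 alone stood out, and without it the differences were -0.25 (adjusted p = 0.457) and 0.19 (adjusted p = 0.613). With line as a random block neither was called. At Signals this low the added constant sets the size: H minus L was -1.56 with 1 added to Signal in place of 16 and -0.23 with 64 added, and L minus C was 1.23 and 0.22.

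nos was the other. H males had 31.4, 20.9, 23.4 and 24.3, L males 26.1, 29.0, 38.0 and 40.8, and C males 41.3, 43.6, 43.2 and 31.0. H males were below C males by 0.44 (adjusted p = 0.0192 in limma, with 5.52% of all probe sets called), and 1 H array and 1 C array overlapped. The call was lost with line as a random block (adjusted p = 0.315) and without line C1 (adjusted p = 0.0889) or H2 (adjusted p = 0.13), and the difference was -0.65 with 1 added to Signal in place of 16 and -0.22 with 64 added. In females the H minus C difference of nos had the opposite sign, and the difference between the sexes of this contrast, whose male side rests on Signals under 50, was 0.76 (0.45 to 1.06, adjusted p = 0.0363 in limma), where 0.394% of all probe sets were called. No member was called in the same test for H versus L (0.151% called) or L versus C (0.0755% called). The call of this difference for nos ended under 29 of 41 alternatives.

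With the line as the unit, that is, in limma on 6 line means within each sex, 0% of the tested probe sets were called in any of the 3 comparisons in females or in males. At an unadjusted p under 0.05 there were 746, 556 and 541 in females for H versus L, H versus C and L versus C, none of them a member, and 521, 1060 and 634 in males, with 1, 2 and 0 members. An exact permutation test of 2 lines against 2 cannot give a two-sided p below 0.333.

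**Figure D3:**
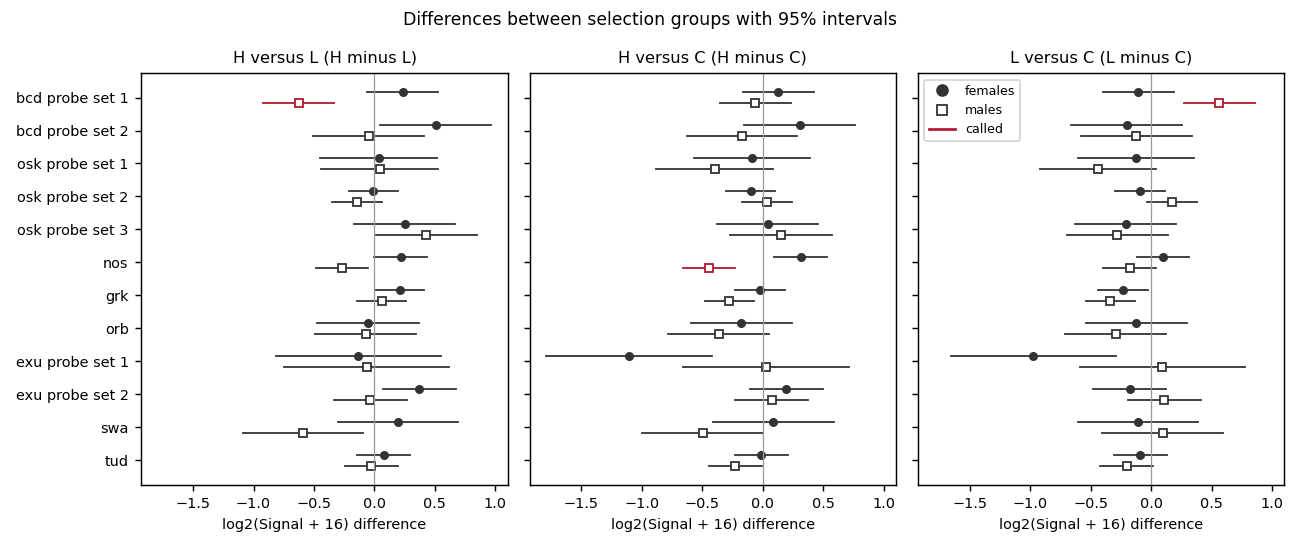
Differences between selection groups for the 12 tested probe sets on the log2(Signal + 16) scale, with 95% intervals from limma over arrays; filled circles are females, open squares males, and red marks a call. In females every interval of H versus L but those of bcd probe set 2, nos, grk and exu probe set 2 holds 0, and the 3 calls lie in males, at bcd probe set 1 and nos.

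The genes that work with these 9 were read from 7 lists, covering RNA transport, germ plasm partners, the dorsal-ventral and terminal pathways, early oogenesis, egg activation and the embryonic genes that bcd, nos and their partners control. Of 74 genes named, 66 had a probe set of their own and 58 were tested. Of these 58, 48 were higher in females and 6 higher in males (limma, adjusted p under 0.001), with a median female minus male difference of 1.49, where 44.5% and 30% of all tested probe sets were called in these directions and the median was 0.17. Each gene was read by its probe set with the highest mean Signal. As for the members, a list gene that is dim in 1 sex passed the filter through the other.

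RNA transport and ribonucleoprotein genes were higher in females, 9 of 9 tested, with a median of 1.15. They ran from me31B, the DEAD-box repressor of stored message, at 3.04, to the dynein light chain gene ctp, at 0.36. Of the 13 germ plasm partners tested, 11 were higher in females and 1 lower. smaug (smg), the repressor of unlocalized nos message, stood highest at 4.16. cappuccino (capu), an actin nucleator that the oocyte needs for osk transport, was lower in females by 1.32, with 322 to 512 in females and 903 to 1264 in males.

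In the dorsal-ventral list 10 of 14 were higher in females, from nudel (ndl), the first protease of the eggshell cascade, at 3.71, and 1 was lower, windbeutel (wbl), a chaperone of Pipe, at -2.41. wbl had 46.1 to 232 in females and 632 to 994 in males. All but 1 of the 5 tested terminal genes were higher in females, led by fs(1)N at 3.83, while torso-like (tsl), which is secreted by follicle cells at the egg's ends, was lower at -0.27. Among early oogenesis regulators 6 of 8 were higher in females, led by otu at 6.71, and bgcn, a germ line differentiation factor of both sexes, was lower at -3.10. With 7.3 to 49.5 in females and 295 to 480 in males, bgcn passed the filter through males alone, so its difference is a description.

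The 6 egg activation genes were all higher in females, with the highest median of the 7 lists at 4.11, between gnu at 6.86 and Fmr1 at 0.89. A second probe set of Fmr1 gave 0.25 and was not called (adjusted p = 0.0446 in limma). Of the 9 embryonic target genes only 3 passed the filter. hunchback (hb), which is also supplied by the mother and repressed by nos, was higher in females by 3.29, caudal (cad), repressed by bcd, by 1.67, and the gap gene knirps (kni) was lower by 0.43.

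**Figure D4:**
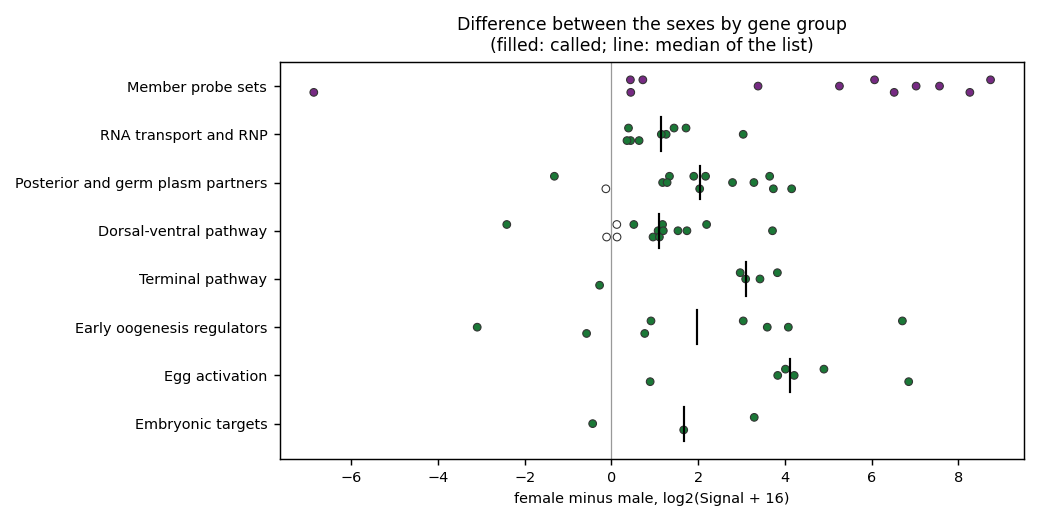
Female minus male difference on the log2(Signal + 16) scale for the 12 tested member probe sets (top row) and the tested genes of 7 lists, 1 point per probe set, filled where called, with a line at each list's median. Most points lie right of 0; exu probe set 1, bgcn, wbl and capu lie farthest left.

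Although no member was called between selection groups in females, staufen (stau), whose double-stranded RNA-binding protein carries osk message to the rear and anchors bcd message at the front, was lower in H lines in both sexes. H females had 363, 422, 480 and 411, against 850, 598, 934 and 1113 in L females and 886, 748, 928 and 823 in C females. H males had 321, 343, 284 and 337, against 510, 492, 704 and 677 in L males and 617, 646, 751 and 742 in C males. Every H array was below every L and C array of its sex.

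The differences of stau in females were -1.005 ± 0.110 for H versus L and -0.99 ± 0.11 for H versus C (SE, limma, adjusted p = 7.56e-05 and 0.000127). In males they were -0.85 ± 0.11 and -1.06 ± 0.11 (adjusted p = 0.00031 and 6.7e-05). H females averaged 419 ± 48, L females 874 ± 214 and C females 846 ± 78 (SD, n = 4 arrays). The L minus C difference was 0.02 in females (95% interval -0.22 to 0.25) and -0.22 in males (-0.45 to 0.02). stau differed among the 6 lines as well (adjusted p = 1.87e-06 in limma), and its H versus L and H versus C differences did not differ detectably between the sexes (adjusted p = 0.809 and 0.876). With line as a random block H versus C in males stayed called (adjusted p = 0.0137), while the other 3 did not (adjusted p = 0.0703 to 0.190). On line means none of the 4 was called (adjusted p = 0.547 to 0.976).

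Imp, another RNA-binding protein of osk and grk particles, was lower in H than in C lines by the probe set read, by 0.54 in females (adjusted p = 0.00489 in limma) and 0.50 in males (adjusted p = 0.00663), and lower in H than in L females by 0.35 (adjusted p = 0.0458). It had 720, 635, 878 and 754 in H females, 938, 770, 962 and 1164 in L females, and 1265, 1121, 986 and 990 in C females. H1 was lowest and C1 highest of the lines in females. Both calls against C ended without line H1 (-0.41 in females, -0.24 in males), and also without C1 in females (-0.41) and without C2 in males (-0.30). The call against L females ended without H1 (-0.22), L2 (-0.19), C1 or C2. All 3 calls ended with line as a random block (adjusted p = 0.341 to 0.695) and with each array scaled to 1 median (adjusted p = 0.0521 to 0.523). Of the 3 other probe sets of Imp, 2 were tested and neither was called, with H minus C of -0.06 and -0.29 in females and 0.16 and -0.16 in males, and H minus L of -0.12 and 0.44 in females.

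In the dorsal-ventral list pipe (pip), the sulfotransferase of ventral follicle cells, differed through 1 line, by 1 of its 10 probe sets. The other 9 did not pass the filter and were at or under 79.4 on every array. L1 had 460 and 460 in females and 376 and 500 in males, where the other 20 arrays had 49.9 to 97.9. The H minus L differences of -1.47 in females and -1.22 in males, and L minus C of 1.29 in males, were -0.28, -0.16 and 0.23 without L1. L minus C in females, 1.24, was not called because the 4 line differences did not share a sign. Over all lines the female minus male difference of pip was -0.11 (95% interval -0.31 to 0.09).

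In the Toll pathway, which reads the dorsal-ventral signal in the embryo, the kinase gene pelle (pll) was lower in H males than in L males by 0.44 (adjusted p = 0.00553 in limma) and C males by 0.43 (adjusted p = 0.00724), and lower in H than in L females by 0.31 (adjusted p = 0.042). The receptor gene Toll (Tl) was lower in H than in L males by 0.32 (adjusted p = 0.0378). The egg activation gene plu was higher in L than in C males by 0.37 (adjusted p = 0.0372 in limma). Its male Signals were 44.1 to 53.3 in L and 28.1 to 38.9 in C, near or under the filter level of 50, which plu passed through females. The gene bam, which starts germ line differentiation, was higher in L than in C females by 0.88 (adjusted p = 0.0206 in limma). Each of these 6 calls of pll, Tl, plu and bam ended with line as a random block and when each array was scaled to 1 median. In all, 4, 2 and 1 of the 58 list genes were called for H versus L, H versus C and L versus C in females, and 4, 3 and 2 in males, where 4.78%, 3.42% and 3.02% of all tested probe sets were called in females and 3.62%, 5.52% and 2.48% in males.

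**Figure D5:**
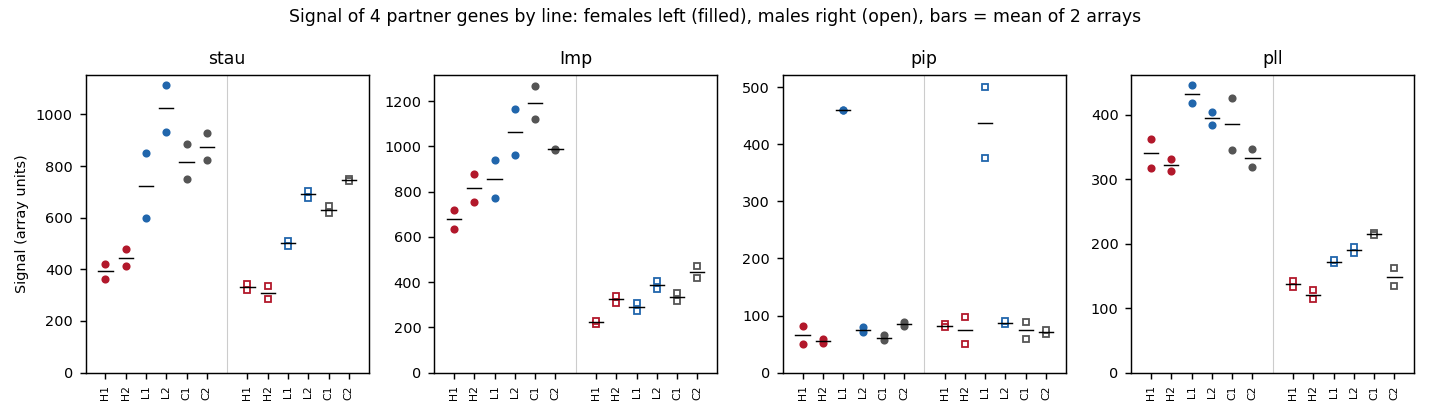
Signal of stau, Imp, pip and pll on each array (linear axis from 0, array units) by line, with females on the left of each panel as filled circles, males on the right as open squares and bars at the mean of 2 arrays. All H arrays of stau lie below all L and C arrays of their sex, and pip is raised in line L1 alone.

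The genes whose Signals followed the 9 members most closely over the 12 female arrays were found by Pearson's r with the members' mean profile, given as a description over arrays that share lines and scaling. With each member represented by its brightest probe set, the 5 highest were CG13097 (r = 0.897), Mad1 (0.897), PhKgamma (0.877), CG4854 (0.873) and CG7115 (0.849). That profile took in exu probe set 1, which is dim in females and followed the profile at 0.840. The profile was highest on C1 female replicate 1, at 0.353 (log2), with C1 female replicate 2 next at 0.162. The first of these is the array with the high accessory gland and testis values, whose part in the profile was not tested. With exu probe set 2 in its place, a choice made after the values were seen, the 5 highest were CG12241 (0.972), Top1 (0.961), CG7857 (0.931), superdeath (0.927) and indra (0.925). The 5 genes named first then stood between 0.506 (PhKgamma) and 0.902 (CG13097). The members themselves did not move as 1 block: with that profile swa had r = 0.963, exu probe set 2 0.864, bcd 0.797 and nos 0.722. Lower values were those of osk (0.542), vas (0.39), grk (0.147), orb (0.122) and tud (0.024). Each member, also exu probe set 1 above, is part of the profile it is set against, which raises its r.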

How the data were processed

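Total RNA of whole flies was hybridized to Affymetrix Drosophila Genome 2.0 arrays, 1 array per sample. The deposited values are Signal intensities that the authors computed with Microarray Suite 5.0 (MAS5) from matched and mismatched oligonucleotides and scaled on each array; detection calls were not used here. All 24 columns were matched to samples by accession, with 0 left over. The sample notes and the article give different generations for the collection.

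Probe sets were named through the platform annotation updated with RefSeq gene tables: 13646 had 1 gene, 402 several and 4721 none in these tables. Base and protein sequences were not analysed here. Signals were tested as log2(Signal + 16) in limma 3.58.1 (R 4.3.3) with 1 mean per line and sex, as in the article's model of sex, line and their interaction, with moderated variances and Benjamini-Hochberg adjustment over all 11928 probe sets whose 12th-highest Signal was at least 50. Thresholds were 0.001 for sex and line and 0.05 for selection groups. Line means were also tested as 6 replicates in each sex. Where arrays or lines were left out, the tested probe sets stayed the same. The fit was tested on simulated data.

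Members, lists and tests were chosen with earlier results of these data known. All members were named, and from each list the genes with the highest and lowest difference between the sexes and every gene called by line or selection group, plus the 5 genes most like the members. The sources used here do not say whether replicate pools were raised separately, so p-values measure the spread between these arrays, and 2 arrays per line and sex limit the precision. Alternatives covered the added constant, filter, scaling, variance model, blocks, thresholds and omitted arrays and lines.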

Additional observations from a re-analysis of the deposited data

Results flagged for a closer look

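Among 78 groups of 4 arrays (13 probe sets, 3 selection groups, 2 sexes), 2 held an array far from the other 3 by Dixon's criterion, which chance flags in about 1 group in 20. In L males, vas had 18.4 on L1 replicate 1, against 42.1 to 43.2 on the other 3 arrays. In C females, tud had 1385 on C2 replicate 1, against 1088 to 1134 on the other 3. The H versus C contrast of nos differed between the sexes, by 0.76 on the log2(Signal + 16) scale (limma, adjusted p = 0.0363), being above 0 in females and below 0 in males. Its male side rests on Signals of 20.9 to 43.6, under the filter level of 50 that nos passed through females alone, and the call ended under 29 of 41 alternatives.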

How the results depend on the processing

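All 12 tested members kept their direction and call between the sexes under every alternative run. The number left under 5% in males was 8, or 7 from means of log2(Signal + 16), where bcd probe set 2 stood at 9.87%. At 0.05 in place of 0.001, 1 member was called among lines, 1 among lines in females (exu probe set 1) and 2 among lines in males. Member counts in this section stand without the share of all tested probe sets called under the same setting. They therefore cannot show whether members were called more often than other probe sets.

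For H versus L in females (0 members), 4 were called with each array scaled to 1 median, 1 (nos) on Signal itself, 1 with the replicate block (exu probe set 2), 1 without line H2, and 0 to 1 with 1 array left out. For H versus C in females (0), 1 was called on Signal itself (orb), 1 without C1 (nos) and 1 without C2 (exu probe set 1, -1.86). For L versus C in females (0), 1 was called without C2 (exu probe set 1, -1.73) and 0 to 1 with 1 array left out. For the sex difference of H versus L (0), 1 was called without L1 and 0 to 1 with 1 array left out. These last 3 ranges reach 1 without L1 female replicate 2.

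Each call in males fell to 0 with each array scaled to 1 median, on Signal itself, at a threshold of 0.01, with line as a random block, with 64 added to Signal, and for some single arrays (0 to 1). H versus L in males (bcd probe set 1) was also 0 without H1, H2 or L2 and without replicate 1 of L1, L2 or H2 or replicate 2 of H1 (-0.60 to -0.48). H versus C in males (nos) was 0 after quantile normalization, without C1 or H2 and without replicate 1 of C2 or H2 (without H1 replicate 2, swa was called instead). L versus C in males (bcd probe set 1) was 0 with 1 added, with no filter, with ordinary variances and without C2, and its call ended without any 1 of the 8 C and L male arrays. Without L2 that call also ended, and grk was called instead (-0.45). The sex difference of H versus C (nos) was 0 with 1 added, no filter, quantile or median scaling, Signal itself, ordinary variances, a threshold of 0.01, without C1, C2, H1, H2 or L2, and 0 to 1 with 1 array left out. The causes were not tested. Among list genes, stau kept its 4 calls with any 1 array left out, while 20 single omissions ended the H versus L call of Imp in females, 14 that of pll in females, 10 that of Tl in males, 7 that of plu, 5 that of bam, and 1 or 2 those of pip and of Imp and pll in H versus C males. By 2 other probe sets of Imp, added after the data were seen, H versus L in females was -0.12 and 0.44 and H versus C in males 0.16 and -0.16, so the sign turned in 1 of each.

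Replicate numbers paired the arrays weakly at most: 16 of 66 pairs of line and sex groups correlated above 0.1, with values from -0.246 to 0.211. For exu probe set 2 the replicate block lowered the SE of the difference between the sexes from 0.082 to 0.054. Replicate effects on single probe sets were not tested. The replicate block moved no other member count. For the 7 tested members under 50 on every male array, and for swa, low Signal limits the comparisons in males.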
